A study of Mus musculus with 33 samples.

Results

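Common lymphoid progenitors (CLP) were compared with multipotent progenitors (MPP) across all genes, in 6 of the 33 mouse bone marrow RNA libraries of the series. The members were the 3 CLP and 3 MPP columns of the table of raw read counts, found by their names, and 20464 of the 56748 gene IDs held enough counts to be tested. The series covers 11 populations of the blood hierarchy and is about the epigenetic control of stem cell fate. Both populations were depleted of lineage-positive marrow cells with antibodies and beads, stained and sorted, and polyadenylated RNA was sequenced after TRIzol extraction and preparation with a transposase-based kit. The labels give no genotype, strain, age, treatment or number of animals for either group, and the sources used here do not give the antibodies of the gates.

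CLP libraries held 14922636 to 22603806 counts and MPP libraries 14499157 to 21252253. Levels below are TMM-scaled CPM, library-size-scaled counts corrected for RNA composition, and fold changes are CLP over MPP on the log2 scale. The fold changes come from the quasi-likelihood test of edgeR with Benjamini-Hochberg adjusted p-values and a threshold of 0.05. The ± after a fold change is its size divided by the square root of the F statistic of that test. It stands in for a standard error and is too small where 1 group holds few counts. After a CPM level, ± is the standard deviation over the 3 libraries of the group. Libraries of 1 group were close to each other: the chi-square per gene was 1.16 to 1.27 for most pairs, and 2.14 and 2.26 for the pairs with CLP replicate 2. The labels do not tie replicates to separate animals, and all p-values rest on a spread between libraries that may be technical. Immunoglobulin and joining chain genes took 7.41% to 7.53% of the counts in MPP and 0.112% to 0.115% in CLP, and mitochondrial genes 2.17% to 2.18% and 2.87% to 2.93%. In sorted bulk samples, fewer cells of a type and less of a transcript per cell cannot be told apart.

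Multipotent progenitors can still give rise to all blood lineages but have lost long-term self-renewal. A part of them starts to express lymphoid genes, and common lymphoid progenitors, defined in the mouse by the interleukin-7 receptor and by low levels of Kit and Sca-1, give rise mainly to B, T, NK and innate lymphoid cells and to some dendritic cells. Interleukin-7 signalling, the E-protein and Ikaros transcription factors and the recombinase genes are the textbook features of the lymphoid step, and stem cell and myeloid genes are turned down along it.

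Il7r, the interleukin-7 receptor chain of the textbook CLP gate, stood at 46.1, 42.7 and 48.4 CPM in the CLP libraries and 7.29, 7.08 and 7.09 in the MPP libraries. The groups did not overlap, and Il7r was 6.43-fold higher in CLP (log2 fold change 2.68 ± 0.072, edgeR adjusted p = 9.56e-64). Its promoter is shown because Il7r is a gene of that textbook gate. In RefSeq on GRCm38.p6 the window from 250 bases before to 50 after the start of Il7r, chr15:9529827-9530126 on the minus strand, holds 1 copy of GGAAGT, the core of sites for ETS factors such as PU.1, here on the opposite strand and in capitals:
Il7r: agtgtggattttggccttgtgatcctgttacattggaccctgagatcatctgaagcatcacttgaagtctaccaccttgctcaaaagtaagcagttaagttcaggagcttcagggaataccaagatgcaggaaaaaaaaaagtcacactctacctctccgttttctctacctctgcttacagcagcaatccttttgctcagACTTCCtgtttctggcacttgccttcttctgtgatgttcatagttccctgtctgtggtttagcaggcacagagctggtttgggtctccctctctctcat
The same 6 letters, on either strand, were in 23.8% of 32851 RefSeq promoters of that length, and the match is a description of the sequence only. Overlap with other motifs was not searched.

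Kit and Ly6a, which textbook gates of these cells also use, were lower in CLP. Kit, the stem cell factor receptor, was measured at 61.2, 52.5 and 60.1 CPM in the CLP libraries and 343, 333 and 343 in the MPP libraries. It was lower in every CLP library and 5.84-fold lower in the fit (-2.55 ± 0.035, edgeR adjusted p = 9.16e-90). Ly6a, which encodes Sca-1, was at 1.99, 2.17 and 2.44 CPM in the CLP libraries and 214, 212 and 222 in the MPP libraries. At 96.8-fold it fell the most among the 19 measured gate genes (-6.60 ± 0.060, edgeR adjusted p = 1.24e-112). Flt3, the receptor shared by early lymphoid and multipotent cells, was at 248, 254 and 256 CPM in the CLP libraries and 277, 274 and 275 in the MPP libraries, a small fall of -0.12 ± 0.028 (edgeR adjusted p = 3.83e-05) whose sign turned when libraries were scaled by size alone (0.46). Cd34, a sialomucin of immature cells, and Fcgr3, an Fc receptor used to gate myeloid progenitors, were 7.21-fold and 3.97-fold lower. Of the 19 gate genes 4 were higher and 12 lower (21.1% and 63.2%, against 39.6% and 37.4% of all genes), and 3 did not pass. Cd4 (T cells, 0.801 ± 0.166 against 16.6 ± 0.919 CPM), Ly6g (neutrophils, 0.0297 ± 0.0271 against 1.62 ± 0.575 CPM) and Ly6c1 (0.142 ± 0.161 against 2.76 ± 0.0967 CPM) fell from low levels, and Cd8a (1.33 ± 0.142 against 1.56 ± 0.232 CPM) and Itgam (8.31 ± 0.692 against 7.79 ± 1.19 CPM) did not pass.

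**Figure D1:**
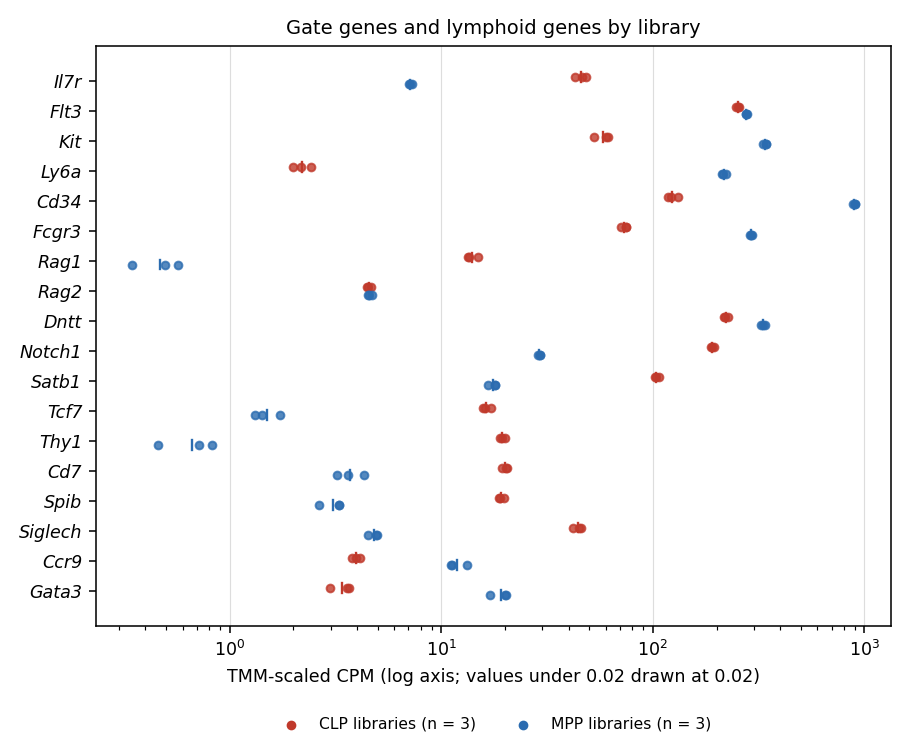
Level of gate genes and lymphoid genes in each library (TMM-scaled CPM, log axis); points are libraries, 3 per population, and ticks are the means. Il7r, Rag1, Notch1, Satb1, Tcf7 and Thy1 lie higher in all CLP libraries, while Kit, Ly6a, Cd34 and Gata3 lie lower, and Rag2 overlaps.

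Most genes differed between the populations. At an adjusted p below 0.05, edgeR called 15747 of 20464 genes (76.9%), 8098 of them higher in CLP (39.6%) and 7649 lower (37.4%), and the median over all genes was 0.00. By 2-fold or more in estimate, 5759 genes (28.1%) were higher and 4586 (22.4%) lower. The libraries of the groups did not overlap for 15812 genes (77.3%), so that a lack of overlap was the usual case. With scaling by total counts only, the all-gene median shifted by 0.57 and the split became 10842 higher and 4970 lower, and directions below are relative to the bulk of genes. Counts in each gene list are to be read beside the 39.6% higher and 37.4% lower over all genes.

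The change followed transcript length. In the 9187 genes with a known exonic length and a mean of at least 10 CPM, the shortest of 10 equal bins (67 to 1736 bases) had a median log2 fold change of -1.36, with 10.8% of genes higher and 85.1% lower. The longest bin (10199 to 123179 bases) had a median of 1.38, with 83.9% higher and 13.2% lower, and the medians in between rose from bin to bin. Spearman's rho of fold change with exonic length was 0.524 across these genes, and 0.290 across all 19762 tested genes with a length, as a description across genes that share the same libraries. Each CLP library against the MPP mean gave 0.520 to 0.526, whereas each MPP library against the other MPP libraries gave -0.009 to 0.003. Each CLP library against the other CLP libraries gave -0.060 to 0.100, a wider range than in MPP. GC content alone was nearly unrelated to the fold change (rho -0.064), yet with genes cut into 5 bins by each measure, the longest bin had a median of 0.92 where GC content was lowest and 2.09 where it was highest.

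The other populations compared with the same MPP libraries gave flatter or opposite relations. Medians from the shortest to the longest bin ran from -1.04 to 0.36 in LT-HSC and from -0.92 to 0.42 in ST-HSC, the long-term and short-term stem cells. In granulocyte-macrophage progenitors (GMP) rho was -0.400 and in megakaryocyte-erythroid progenitors (MEP) -0.111. Their bin medians ran from 0.59 to -0.53 in GMP and from 0.44 to -0.094 in MEP. Pearson's correlation with log2 length was positive in both (0.146 and 0.177), so the sign depended on the measure. The cause of the relation was not tested. A length-adjusted value is therefore given beside many of the fold changes: a smooth per-library trend on exonic length and GC content was taken out before the fit. With it 8563 genes were higher (41.8%) and 7055 lower (34.5%), rho fell to 0.090 in genes of 10 CPM or more, and it turned to -0.155 across all tested genes, where short genes of low count moved up (median 1.52 in the shortest of 10 bins). The adjustment moved the fold change by more than 1.5 times in 157 of the 297 genes picked to be named.

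**Figure D2:**
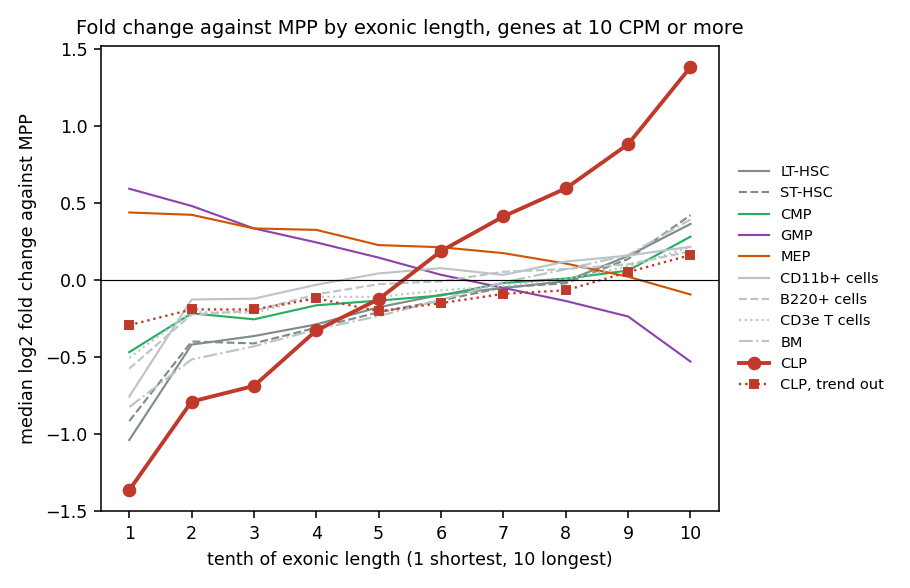
Median log2 fold change against MPP in 10 equal bins of exonic length, for genes at 10 CPM or more; lines are populations and the squares are CLP with the length and GC trend taken out. The CLP line climbs from -1.36 to 1.38 and the adjusted line runs from -0.29 to 0.16.

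Lymphoid priming genes were mostly higher in CLP: 18 of 26 rose, 6 fell and 2 did not pass (median 1.1, or 0.54 length-adjusted, against 0.00 and 0.13 over all genes). Rag1, a subunit of the recombinase that cuts antigen receptor genes, was at 13.4, 14.9 and 13.5 CPM in the CLP libraries and 0.572, 0.494 and 0.346 in the MPP libraries. It was near the detection floor in MPP and 29.8-fold higher in CLP (4.90 ± 0.18, edgeR adjusted p = 7.67e-52). Its partner Rag2 was measured at 4.67, 4.49 and 4.47 CPM in the CLP libraries and 4.50, 4.69 and 4.55 in the MPP libraries, overlapping between the groups (-0.012 ± 0.13, edgeR adjusted p = 0.945), and passed as higher after adjustment (0.37, edgeR adjusted p = 0.00676). Dntt, the terminal transferase that adds bases at receptor joints, was at 218, 219.7 and 228 CPM in the CLP libraries and 331, 324 and 339 in the MPP libraries. All CLP libraries were lower (-0.58 ± 0.050, edgeR adjusted p = 1.16e-10), but the length-adjusted value was 0.18 (adjusted p = 0.00163), a turn of sign.

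Among the regulators in the list, Notch1, the receptor that directs T cell fate, rose 6.57-fold (191 ± 2.76 against 29.1 ± 0.362 CPM) and Satb1, a chromatin organiser of lymphoid cells, 5.91-fold (104 ± 2.50 against 17.5 ± 0.721 CPM). Their transcripts are long, 14232 and 19027 exonic bases, and the length-adjusted folds were 2.06 and 2.13. Spib, an ETS factor of B and plasmacytoid dendritic cells, was at 18.8, 18.9 and 19.7 CPM in CLP against 2.64, 3.29 and 3.28 in MPP, a rise of 2.64 ± 0.15 that length adjustment left at 3.03 (edgeR adjusted p = 8.76e-19). Sox4 (2.38), Foxo1 (2.05), Bcl11a (1.78), Myb (1.74) and Gfi1 (1.43), all transcription factors needed in early lymphoid cells, also rose, and each stayed higher after adjustment (2.21, 1.25, 0.61, 0.92 and 1.45). Ikzf3 (1.28), Ikzf1 (0.52), Erg (0.65), Cnn3 (1.18) and Blnk (0.72) rose as well. Tcf4, an E-protein gene of 27382 exonic bases, rose by 1.27 and fell by 0.20 after length adjustment, and Runx1 (1.02) and Tcf3 (0.11) also turned sign (-0.080 and -0.67). Lmo2 (-1.40) and Ccr9, a thymus-homing receptor (-1.58), fell, Mef2c fell (-0.14, -1.46 length-adjusted) but was higher with scaling by library size alone (0.45), and Ly6d, which marks the B-biased fraction of CLP, did not pass (25.2 ± 0.491 against 21.6 ± 1.39 CPM, 0.21, edgeR adjusted p = 0.0863). Its transcript is short (744 exonic bases), and the length-adjusted value passed (2.07, edgeR adjusted p = 8.73e-14).

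Of 26 measured B lineage genes 12 were higher and 10 lower (46.2% and 38.5%, against 39.6% and 37.4% of all genes; median 0.10, or 0.34 length-adjusted). Ebf1 (5.41 ± 0.362 against 0.835 ± 0.207 CPM) and Pax5 (3.09 ± 0.0976 against 0.207 ± 0.0559 CPM), the transcription factors of B cell commitment, were higher in CLP but low in both groups (log2 fold changes 2.71 ± 0.21 and 3.86 ± 0.31); both were named after their values were seen. Other members of the list were lower in CLP. Cd79a, a signalling chain of the B cell receptor, was at 2.85, 3.38 and 3.13 CPM in the CLP libraries and 23.7, 24.9 and 24.5 in the MPP libraries (-2.96), and Cd74, the invariant chain of MHC class II, at 40.6 ± 1.54 against 576 ± 13.1 CPM (-3.82). Pou2af1 (-2.69) and Bank1 (-3.85) fell as well, with no overlap between the groups.

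Antibody genes were far lower in CLP. In the plasma cell and immunoglobulin list 14 of 15 genes were lower in CLP and 1 was higher (median -3.31), and the summed level was 901 to 931 CPM over the CLP libraries and 60099.8 to 61145 over the MPP libraries. Ighm, the mu heavy chain, stood at 462 ± 7.98 against 26885 ± 320.5 CPM, Igkc, the kappa light chain, at 65.3 ± 2.31 against 18115 ± 136 CPM, and Jchain, which joins secreted IgA and IgM, at 41.5 ± 2.82 against 7376 ± 106 CPM. Log2 fold changes were -5.86 ± 0.089, -8.12 ± 0.11 and -7.46 ± 0.070. In common myeloid progenitors (CMP) Ighm, Igkc and Jchain were far under MPP too, at 948, 16.4 and 5.19 CPM. Of the 12 largest falls outside the excluded gene classes, 4 were immunoglobulin constant genes: Iglc1 (2098-fold), Ighg2c (2039-fold), Iglc2 (763-fold) and Ighg3 (579-fold). Reads of the lambda constant genes Iglc1 and Iglc2 can be shared between similar copies, so the split between them is uncertain. Whether antibody-producing cells in the MPP sort had a part in the other differences was not tested.

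Of 24 early T lineage and Notch genes 10 were higher, 9 lower and 5 did not pass (median 0.18). These shares, 41.7% and 37.5%, were near those of all genes (39.6% and 37.4%). Tcf7, the T cell factor TCF-1, was at 17.2, 15.7 and 16.1 CPM in the CLP libraries and 1.43, 1.73 and 1.33 in the MPP libraries, and rose 11-fold (3.47 ± 0.13, edgeR adjusted p = 1.26e-48). Thy1 was at 18.9, 19.5 and 20 CPM in the CLP libraries and 0.715, 0.823 and 0.461 in the MPP libraries and rose 30.0-fold (4.91 ± 0.16, edgeR adjusted p = 9.82e-57). Cd7, a surface antigen of early T and NK cells, rose by 2.41 ± 0.11 (20 ± 0.503 against 3.72 ± 0.559 CPM). All 3 lay higher in every CLP library and kept their sign after length adjustment (4.10, 5.17 and 3.51). Gata3, which T cells also need, was at 3.60, 3.65 and 2.98 CPM in the CLP libraries and 16.9, 20 and 20.3 in the MPP libraries and fell (-2.51 ± 0.10, edgeR adjusted p = 1.67e-45). Hes1, a Notch target, fell by 2.24 although Notch1 rose (2.46 ± 0.164 against 11.7 ± 0.393 CPM), and Cd27 fell from 113 ± 1.49 to 25.0 ± 2.29 CPM. Genes of the T cell receptor complex were scarcely detected: Cd3e (0.441 ± 0.0882 against 0.264 ± 0.131 CPM), Cd3d (0.371 ± 0.110 against 0.904 ± 0.384 CPM) and Cd3g (0.561 ± 0.114 against 1.26 ± 0.128 CPM) had under 2 CPM in each library, and Ptcra had 1 count in all 6. Dtx1, Bcl11b, Cd5 and Themis passed with rises at under 3 CPM, and none of the 4 passed as higher after length adjustment.

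Among other members of the early T list, Ccr7 rose by 0.51, and Tox and Lat fell (-1.08 and -0.40), although Lat was higher with library size alone (0.18). The small fall of Lck (-0.21) turned with length adjustment (0.21). Cd247, Zap70 and Lef1 did not pass (0.23, 0.13 and -0.71), although Lef1 passed as lower after adjustment (-1.51, edgeR adjusted p = 0.000264). Lef1 stood at 0.475 ± 0.246 against 0.727 ± 0.0747 CPM, far under 10 CPM, where the adjustment is not reliable. Of 18 NK and innate lymphoid genes 8 rose and 6 fell (44.4% and 33.3%). Il18r1, an interleukin-18 receptor chain, was at 45.1, 42.8 and 40.7 CPM in the CLP libraries and 2.93, 3.29 and 2.59 in the MPP libraries, 14.7-fold higher. Id2, the E-protein inhibitor that innate lymphoid cells depend on, fell by 2.69 (22.2 ± 1.22 against 143 ± 1.01 CPM), and Nkg7, a granule gene of NK cells also expressed in other blood cells, by 3.77 (47.1 ± 2.61 against 647 ± 11.2 CPM), with length-adjusted values of -1.94 and -2.27.

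Of 20 genes of dendritic cells 12 were higher and 7 lower, against 39.6% and 37.4% of all genes (median 0.88), and after length adjustment 9 and 8 (median 0.29). Siglech, a lectin of plasmacytoid dendritic cells, was at 45.6, 41.9 and 44.9 CPM in the CLP libraries and 4.50, 4.94 and 4.96 in the MPP libraries, and Clec9a, a receptor of conventional dendritic cells, at 33.1, 35.4 and 34.4 CPM in the CLP libraries and 2.0, 1.73 and 1.33 in the MPP libraries. The rises were 3.20 ± 0.11 and 4.37 ± 0.11 (edgeR adjusted p = 4.35e-23 and 1.67e-67), with all CLP libraries above all MPP libraries. Runx2 (3.56 ± 0.041) and Itgax, which encodes CD11c (3.68 ± 0.067), rose too. The summed level of the list went the other way, 2572 to 2698 CPM in CLP and 3525 to 3555 in MPP. Siglech, Clec9a, Runx2 and Itgax all rose, while 6 of the 7 genes of the list that fell did so by 2-fold or more. Of 12 MHC class II genes 8 fell and 4 did not pass, and after adjustment 9 were lower and 3 higher. Among the falls were H2-Ab1 at 24.0 ± 0.444 against 251 ± 4.40 CPM (-3.38), H2-Aa at 22.1 ± 1.45 against 145 ± 1.18 CPM (-2.71) and the protease Ctss at 83.2 ± 0.438 against 298 ± 3.85 CPM (-1.84, -0.81 length-adjusted).

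Macrophage genes were among the largest falls named. C1qb, a chain of the complement protein C1q made by tissue macrophages, was at 0.107, 0.106 and 0.145 CPM in the CLP libraries and 952, 942 and 958 in the MPP libraries, which is 8 counts in all CLP libraries together. It was 7372-fold lower (-12.85 ± 0.14, edgeR adjusted p = 4.52e-30), with C1qa 3003-fold and C1qc 1358-fold lower. The ± of C1qb is too small at so few CLP counts. Fcna (ficolin A, 2755-fold), Cd5l (2041-fold) and Hmox1, the heme oxygenase (501-fold), were among the 12 largest falls, and Cd209f went from 37.3 ± 2.43 CPM to 1 count in CLP. Of 22 monocyte and macrophage genes 20 were lower and 2 higher (median -4.27, length-adjusted -4.12). The summed level was 1133 to 1165 CPM in CLP against 10266 to 10509 in MPP, and Vcam1, an adhesion molecule of marrow macrophages and stroma, fell 94.9-fold (23.1 ± 0.618 against 2192 ± 45.8 CPM). The 2 that rose were receptors of monocytes, Ccr2 (261 ± 1.39 against 54.6 ± 2.70 CPM, 2.26) and Cx3cr1 (79.4 ± 3.83 against 8.88 ± 1.05 CPM, 3.17). Whether macrophages in the MPP sort had a part in other differences was not tested.

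The promoters of C1qb and C1qc are shown because these neighbouring genes fell together. In RefSeq on GRCm38.p6 they lie at chr4:136886151-136886450 and chr4:136892865-136893164, both on the minus strand, and GGAAGT, on the opposite strand, is in capitals:
C1qb: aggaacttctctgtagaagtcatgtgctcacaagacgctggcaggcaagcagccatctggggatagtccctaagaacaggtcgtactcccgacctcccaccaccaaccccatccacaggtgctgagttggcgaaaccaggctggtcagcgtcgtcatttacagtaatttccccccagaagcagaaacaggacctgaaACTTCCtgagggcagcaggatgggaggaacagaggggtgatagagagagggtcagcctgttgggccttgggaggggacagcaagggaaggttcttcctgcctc
C1qc: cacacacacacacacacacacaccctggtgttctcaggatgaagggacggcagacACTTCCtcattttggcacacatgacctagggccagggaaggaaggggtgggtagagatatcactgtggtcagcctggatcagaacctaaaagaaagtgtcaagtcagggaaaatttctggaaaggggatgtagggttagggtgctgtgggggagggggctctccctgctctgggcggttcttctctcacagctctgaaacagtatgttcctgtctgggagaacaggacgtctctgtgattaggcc
Each window holds 1 such hexamer, as does that of Il7r, whose transcript moved the other way. TGCTGAC, the core of sites for Maf factors, which act in macrophages, was searched on both strands and is in none of the 3 windows and in 4.67% of all promoters.

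**Figure D3:**
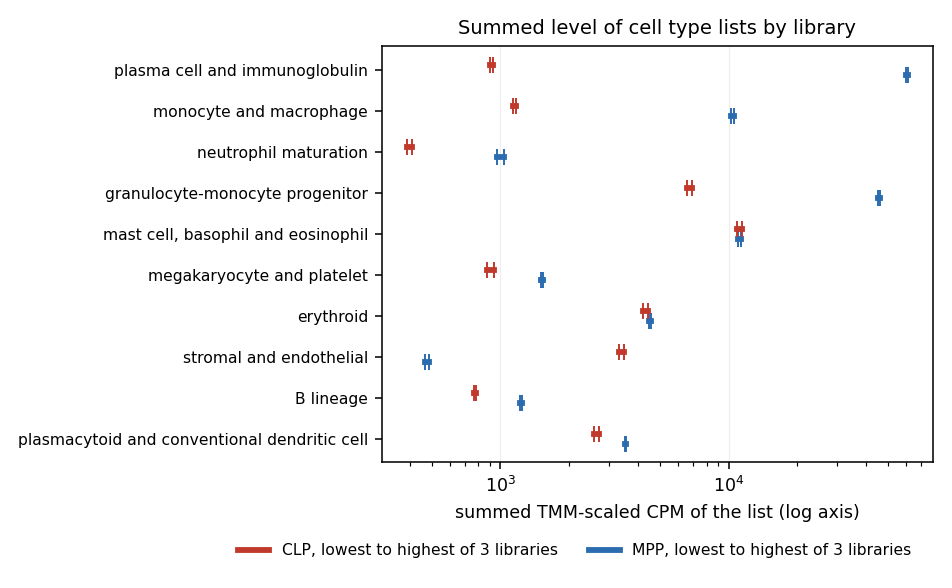
Summed level of cell type gene lists (TMM-scaled CPM, log axis), drawn from the lowest to the highest of 3 libraries per population. Plasma cell, macrophage, neutrophil and granulocyte-monocyte lists lie lower in CLP, the stromal and endothelial list lies higher, and the mast cell list overlaps.

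Granulocyte-monocyte progenitor genes were lower in 14 of 22 and higher in 8 (63.6% and 36.4%, against 37.4% and 39.6% of all genes, median -1.27). Their sum was 6589.7 to 6891 CPM in CLP against 45348 to 46261 in MPP. Elane, the neutrophil elastase gene, was at 173, 177 and 176 CPM in the CLP libraries and 9156, 9048 and 9306 in the MPP libraries, 52.4-fold lower in CLP. Mpo, myeloperoxidase, fell 16.6-fold (1192 ± 26.4 against 19774 ± 176 CPM), Ctsg 15.2-fold and Prtn3 9.48-fold. Cebpa, the transcription factor that drives the granulocyte-monocyte fate, moved against these granule genes: it was at 124, 113 and 126 CPM in the CLP libraries and 12.8, 13.8 and 12.7 in the MPP libraries, a rise of 3.21 ± 0.055 (edgeR adjusted p = 3.25e-84). Neutrophil maturation genes fell in 17 of 22, with S100a8 at 12.4 ± 0.884 against 419 ± 8.30 CPM (-5.06, -2.88 length-adjusted), Fcnb at 4.51 ± 0.818 against 38.8 ± 1.39 CPM and Fpr1 at 16.2 ± 0.476 CPM in MPP against 2 counts in CLP.

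Basophil and eosinophil genes stayed abundant in both populations. Of 23 genes 12 were higher and 9 lower (52.2% and 39.1%, against 39.6% and 37.4% of all genes, median 0.28). After length adjustment 18 were higher and 4 lower (median 1.39). The sum was 10884 to 11392 CPM in CLP and 11044 to 11388 in MPP. Ms4a2, the beta chain of the IgE receptor, was at 275, 269.9 and 279 CPM in the CLP libraries and 71.6, 71.1 and 74.9 in the MPP libraries and rose 3.78-fold. Cd200r3, a receptor of basophils and mast cells, rose 8.07-fold (101 ± 3.94 against 12.5 ± 0.347 CPM) and Alox15, a lipoxygenase of eosinophils, 6.60-fold (69.8 ± 1.77 against 10.6 ± 0.670 CPM). Granule genes named after their values were seen were Prss34 (3304 ± 104 against 3497 ± 58.6 CPM), Mcpt8 (1401 ± 40.8 against 795 ± 10.3 CPM), Epx (1356 ± 50.6 against 627 ± 9.46 CPM) and Prg2 (2497 ± 35.8 against 3609.8 ± 75.6 CPM). None of these defining markers was at 0 in either group, and the part of such cells in other results was not tested.

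Of 24 erythroid genes 14 were higher and 9 lower (58.3% and 37.5%, against 39.6% and 37.4% of all genes, median 0.43). After length adjustment 19 were higher and 5 lower (median 0.68). Sptb, an erythrocyte spectrin, was at 286 ± 10.9 against 13.9 ± 0.253 CPM, a rise of 4.37 ± 0.046 (2.85 length-adjusted). Slc4a1, the band 3 anion exchanger, was at 345, 326 and 346 CPM in the CLP libraries and 27.4, 24.9 and 28.5 in the MPP libraries, and all CLP libraries lay above all MPP libraries. Hba-a2, an alpha globin gene, fell (9.70 ± 0.352 against 48.5 ± 4.12 CPM), by 5.01-fold as counted and 1.38-fold after length adjustment, although reads of the alpha globin copies cannot be assigned with certainty. Summed over the list, CLP held 4221 to 4434 CPM and MPP 4469 to 4555. Megakaryocyte and platelet genes were lower in 11 of 18 and higher in 7 (61.1% and 38.9%, against 37.4% and 39.6% of all genes). Pf4, platelet factor 4, fell 6.89-fold (44.2 ± 2.45 against 306 ± 5.68 CPM), while Ppbp rose 4.88-fold (30.8 ± 0.635 against 6.29 ± 0.554 CPM). The length-adjusted folds were 1.63 and 12.3.

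Stem cell identity genes were lower in CLP, 19 of 29 against 6 higher, with a median of -2.16 that length adjustment moved to -2.67. The shares were 65.5% lower and 20.7% higher, against 37.4% and 39.6% of all genes. Mecom, a zinc finger factor that long-term stem cells need, was at 0.376, 0.582 and 0.327 CPM in the CLP libraries and 13.8, 13.7 and 14.6 in the MPP libraries, 33.4-fold lower. Tek, the angiopoietin receptor, fell 16.3-fold (0.908 ± 0.0959 against 15.2 ± 0.424 CPM) and Esam, an endothelial and stem cell adhesion molecule, 9.94-fold (1.73 ± 0.362 against 17.6 ± 0.310 CPM). For all 3 the CLP libraries lay below every MPP library.

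Of 35 cytokine receptors 17 were higher and 17 lower (48.6% each, against 39.6% and 37.4% of all genes). Besides Il7r, Lifr, the leukaemia inhibitory factor receptor, was at 28.6, 28.3 and 27.6 CPM in the CLP libraries and 1.86, 1.40 and 1.96 in the MPP libraries and rose 15.8-fold, and Il6st, the signalling chain it shares with the interleukin-6 receptor, rose 6.10-fold (219 ± 5.42 against 36.0 ± 2.03 CPM). Receptor chains for interleukin-3 and GM-CSF rose: Csf2rb2 (2.66 ± 0.052), Il3ra (1.87 ± 0.059), Csf2rb (1.25 ± 0.034) and Csf2ra (0.90 ± 0.037). Il1rl1, the interleukin-33 receptor (1.73), Il5ra (1.29), Il10ra (1.18), Il6ra (1.02), Ifngr2 (0.90), Ifnar1 (0.64) and Epor (0.59) rose as well. Crlf2, which pairs with the interleukin-7 receptor chain to bind TSLP, rose by 0.38 (46.1 ± 1.52 against 35.2 ± 1.86 CPM).

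Il2rg, the common gamma chain that interleukin-7 signalling needs, was at 15.8, 12.6 and 16 CPM in the CLP libraries and 58.4, 61.9 and 59.8 in the MPP libraries. It fell in every CLP library (-2.00 ± 0.058, edgeR adjusted p = 2.32e-60, -1.26 length-adjusted), so the 2 chains of the interleukin-7 receptor moved in opposite directions. Ifngr1 fell 7.92-fold (88.5 ± 3.11 against 701 ± 9.29 CPM) and Csf3r, the G-CSF receptor, 3.51-fold (40.6 ± 1.24 against 143 ± 1.26 CPM). Il21r (-2.03), Il11ra1 (-1.99), Tgfbr2 (-1.43), Il15ra (-1.20), Il27ra (-0.95) and Tnfrsf1b (-0.64) fell. Il4ra (-0.36), Csf1r (-0.35) and Il1r1 (-0.23) fell by less and stood at -1.08, -0.91 and -0.69 after length adjustment, but were higher with library size alone (0.22, 0.24 and 0.36). Il12rb1 did not pass (-0.15) and passed as lower after adjustment (-0.65, edgeR adjusted p = 1.84e-07). Ifnar2 (-0.23), Tnfrsf1a (-0.30) and Tgfbr1 (0.36) changed little and turned sign with length adjustment (0.17, 0.10 and -0.13).

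Among chemokine receptor and homing genes 14 of 29 were higher and 12 lower (48.3% and 41.4%, against 39.6% and 37.4% of all genes), and after length adjustment 12 and 13. Cxcr4, which holds progenitors in the marrow, was at 162, 155 and 156 CPM in the CLP libraries and 7.58, 7.24 and 8.82 in the MPP libraries and rose 19.7-fold (4.30 ± 0.059, edgeR adjusted p = 7.25e-94). Its transcript is short (1808 exonic bases) and the length-adjusted value was larger (5.15). Ccr3, an eosinophil receptor, went the other way, from 81.8, 90.7 and 86.2 CPM in MPP to 1.29, 1.48 and 1.16 in CLP (-6.05).

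The mitosis list held 25 genes, and 15 rose while 9 fell (60% and 36%, median 0.59, length-adjusted 0.40). For DNA replication 12 of 30 rose while 14 fell (40% and 46.7%, median -0.023). Over all genes 39.6% rose and 37.4% fell, near the rising share of replication and the falling share of mitosis. Mki67, the Ki-67 antigen of cycling cells, was at 1785, 1822 and 1831 CPM in the CLP libraries and 125, 123 and 132 in the MPP libraries, a rise of 3.84 ± 0.029 (edgeR adjusted p = 1.18e-121). Cenpf (2.47) and Cenpe (2.01), centromere proteins, Kif23 (1.71) and Hmmr (1.28) rose too, and the length-adjusted values were 2.90, 1.17, 1.25, 1.01 and 0.99. Mcm6, a subunit of the replicative helicase, fell from 1484, 1460.4 and 1494 to 512, 513 and 518 CPM (-1.52 ± 0.024), as did Mcm3 (-0.92), the ribonucleotide reductase gene Rrm1 (-0.82, -1.82 length-adjusted) and Ung (-1.09), while Pole, the leading strand polymerase, rose (1.55, 0.51 length-adjusted).

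Genes of energy metabolism were lower in CLP. All 28 measured oxidative phosphorylation genes fell (median -1.58), and 23 were still lower and 4 higher after length adjustment (median -1.08). Over all genes 37.4% were lower. The median exonic length of the oxidative phosphorylation genes was 2166 bases. Genes of 1737 to 2569 bases at 10 CPM or more had a median of -0.79, with 76.3% lower. Atp5b, the ATP synthase beta subunit, was at 809, 795 and 841 CPM in the CLP libraries and 4602, 4617 and 4766 in the MPP libraries, and Cycs, cytochrome c, at 77.2 ± 2.42 against 374 ± 5.54 CPM. Falls of 5.72-fold and 4.84-fold were well beyond the library spread. Glycolysis genes fell in 15 of 19 (median -1.36, length-adjusted -1.66), Ldha, lactate dehydrogenase A, by 10.8-fold (312 ± 6.43 against 3362 ± 56.6 CPM), Tpi1 by 6.06-fold and Eno1 by 5.85-fold. Aldoa fell 6.04-fold, and its symbol is shared by several IDs. Ribosome biogenesis genes fell in 17 of 23 (median -0.88), Nhp2 (-2.17), Dkc1 (-1.5) and Nop2 (-1.24) among them, and Utp20 rose (1.77).

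Immediate-early and stress genes were lower in 15 of 24 and higher in 6 (62.5% and 25%, against 37.4% and 39.6% of all genes, median -0.89). Nr4a1, an orphan nuclear receptor induced by receptor signals, fell 14.6-fold (34.2 ± 1.41 against 499 ± 12.3 CPM). Klf4, a Krüppel-like factor, rose from 3.79, 3.46 and 3.11 to 137, 126 and 143 CPM (5.30 ± 0.070), and Fosb (2.73), Jund (3.45) and the heat shock gene Hspa1b (4.15) rose. Interferon-stimulated genes were lower in 15 of 20 (median -0.98), with Oasl2 at 6.13 ± 0.0888 against 42.3 ± 1.06 CPM and Rtp4 at 3.38 ± 0.333 against 29.9 ± 2.23 CPM, while Mx1 rose (22.8 ± 1.86 against 5.31 ± 0.544 CPM).

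Genes of V(D)J recombination and end joining moved both ways. In this list 7 of 17 rose and 9 fell (median -0.43, length-adjusted 0.18). These are 41.2% and 52.9%, against 39.6% and 37.4% of all genes, so the share that rose was near that of all genes. Prkdc (13187 exonic bases), the catalytic subunit of DNA-dependent protein kinase, rose by 2.61 ± 0.056, and Atm (10338 bases), the double-strand break kinase, by 2.26 ± 0.058. Both stayed higher after adjustment (1.45 and 1.33), as did the ligase gene Lig4 (1.47 and 1.23), the polymerase gene Polm (1.53 and 1.45) and Dclre1c, which encodes Artemis (1.19 and 0.34). Xrcc5, the Ku80 gene (-1.31), Xrcc6, the Ku70 gene (-0.43), Xrcc4 (-0.93), Poll (-0.90), Hmgb1 (-1.27) and Hmgb2 (-0.77) fell and stayed lower, although Xrcc6 was higher with library size alone (0.16). Nhej1 (-0.76 to 0.49) and Trp53bp1 (0.68 to -0.57) turned sign, and Paxx (-0.65) no longer passed.

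Cohesin, the ring complex that holds sister chromatids and extrudes chromatin loops, and CTCF, which stops the loops, were higher in CLP: 13 of 15 genes rose and 2 fell (median 1.27). The shares were 86.7% and 13.3%, against 39.6% and 37.4% of all genes. Rad21, the kleisin subunit, was at 409, 409 and 418 CPM in the CLP libraries and 32.8, 27.3 and 29.6 in the MPP libraries. It was 13.8-fold higher (3.78 ± 0.038, edgeR adjusted p = 1.63e-108), and length adjustment left it at 3.82 (exonic length 4232 bases). Ctcf was at 227, 225 and 234 CPM in the CLP libraries and 26.5, 24.3 and 26.7 in the MPP libraries and rose by 3.14 ± 0.041 (edgeR adjusted p = 4.36e-96, length-adjusted 2.97). The rises of the other ring subunits were smaller, with Smc1a at 353 ± 8.20 against 191 ± 1.30 CPM (0.89 ± 0.029) and Smc3 at 239 ± 6.85 against 99.1 ± 2.07 CPM (1.27 ± 0.037). Stag1 (1.26) and Stag2 (1.44), which alternate in the complex, rose too, and stood at 0.20 and 0.68 after adjustment.

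The loader Nipbl (224 ± 6.67 against 41.3 ± 0.780 CPM, 2.44) rose more than its partner Mau2 (116 ± 2.22 against 80.3 ± 2.01 CPM, 0.52), which fell after length adjustment (-0.36). The release factor Wapl (204 ± 5.91 against 30.9 ± 0.743 CPM, 2.72 ± 0.041) and Pds5a (296 ± 8.88 against 38.9 ± 3.53 CPM, 2.93 ± 0.038) and Pds5b (138 ± 3.66 against 49.6 ± 1.76 CPM, 1.47 ± 0.039), which bind it, rose and stayed higher (2.22, 1.47 and 0.58). Of the acetyltransferases Esco2, active in S phase, rose (1.25), and Esco1 rose little (0.23, -0.0013 length-adjusted). Cdca5, which encodes sororin, fell (-0.53) and turned to 0.23, and the deacetylase gene Hdac8 fell (9.18 ± 0.116 against 14.9 ± 0.600 CPM, -0.69). After adjustment 12 genes were higher and 2 lower (median 0.68).

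**Figure D4:**
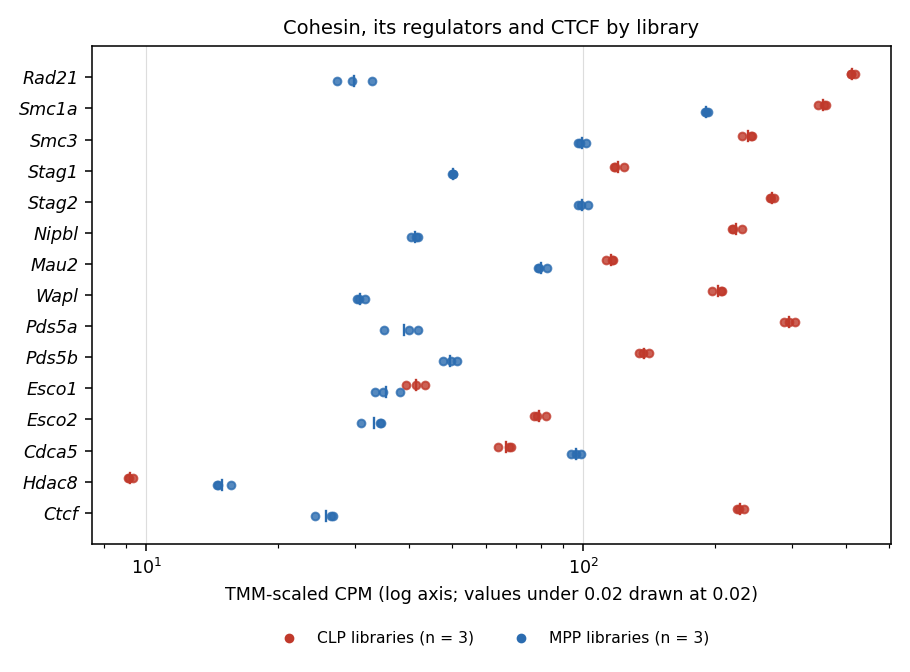
Level of cohesin subunits, their regulators and Ctcf in each library (TMM-scaled CPM, log axis); points are libraries, 3 per population, and ticks are the means. Rad21 and Ctcf show the widest gaps, 3.78 and 3.14 on the log2 scale, and Cdca5 and Hdac8 lie lower in CLP.

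Lists of chromatin regulators counted more rises than falls, and their genes are long. Remodelling enzymes rose in 31 of 34 (median 1.75), histone demethylases in 15 of 18 (1.37), MLL/COMPASS methyltransferase subunits in 12 of 16 (1.63) and heterochromatin genes in 17 of 20 (1.02). Polycomb repressive complex 1 rose in 16 of 21 (1.22), complex 2 in 8 of 12 (1.15), histone acetylation and deacetylation in 17 of 24 (0.71) and DNA methylation in 11 of 16 (0.82). The median exonic length of the remodelling genes was 8784 bases, and genes of 7900 to 10195 bases at 10 CPM or more had a median of 0.88 with 71.5% higher. Length-adjusted medians were lower but above 0 in each of these lists, 0.68 for remodelling, 0.29 for demethylases, 0.72 for MLL/COMPASS, 0.37 for heterochromatin, 0.73 and 0.98 for the Polycomb complexes, 0.39 for acetylation and 0.18 for DNA methylation, against 0.13 over all genes. Higher and lower genes then numbered 25 and 6 for remodelling, 11 and 6 for demethylases, 13 and 3 for MLL/COMPASS and 14 and 5 for heterochromatin. They were 15 and 5, and 7 and 5, for the Polycomb complexes, 14 and 8 for acetylation, and 8 and 8 for DNA methylation, whose summed level was 2032 to 2115 CPM in CLP and 2118 to 2196 in MPP.

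Some of the largest rises were in chromatin genes of moderate length. Suz12, a core subunit of Polycomb complex 2, was at 211, 204 and 213 CPM in the CLP libraries and 9.51, 9.06 and 11 in the MPP libraries, a 21.0-fold rise that stayed 18.6-fold after adjustment (edgeR adjusted p = 1.9e-100). Its partner Ezh2, the methyltransferase, rose less (202 ± 1.78 against 65.5 ± 1.30 CPM, 1.62 ± 0.035). Kdm4a (90.3 ± 3.46 against 3.27 ± 0.194 CPM, 4.78) and Kdm1a (86.0 ± 4.72 against 6.23 ± 0.310 CPM, 3.80), demethylases of histone H3, rose and stayed at 4.28 and 3.51. Kmt2b, an MLL methyltransferase, was at 162, 152 and 167 CPM in the CLP libraries and 5.15, 5.52 and 5.07 in the MPP libraries (4.94 ± 0.061, 3.41 adjusted). Mbd2, which binds methylated DNA, rose by 4.26 ± 0.066 (123 ± 1.66 against 6.45 ± 0.300 CPM) and Sirt1, a deacetylase, by 4.08 ± 0.082 (55.3 ± 0.717 against 3.23 ± 0.308 CPM). Without length adjustment, Bmi1 (2.23), Rybp (3.43) and Phc1 (2.82) of Polycomb complex 1, Ino80 (3.46) and Chd3 (3.35) of the remodellers and Ep300 (2.99) also rose. Tet2, a methylcytosine dioxygenase (16870 exonic bases), rose by 2.70, and by 1.30 after adjustment. Idh2, whose enzyme makes the cofactor that TET enzymes use, fell by 2.64 (143 ± 2.32 against 897 ± 22.8 CPM).

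**Figure D5:**
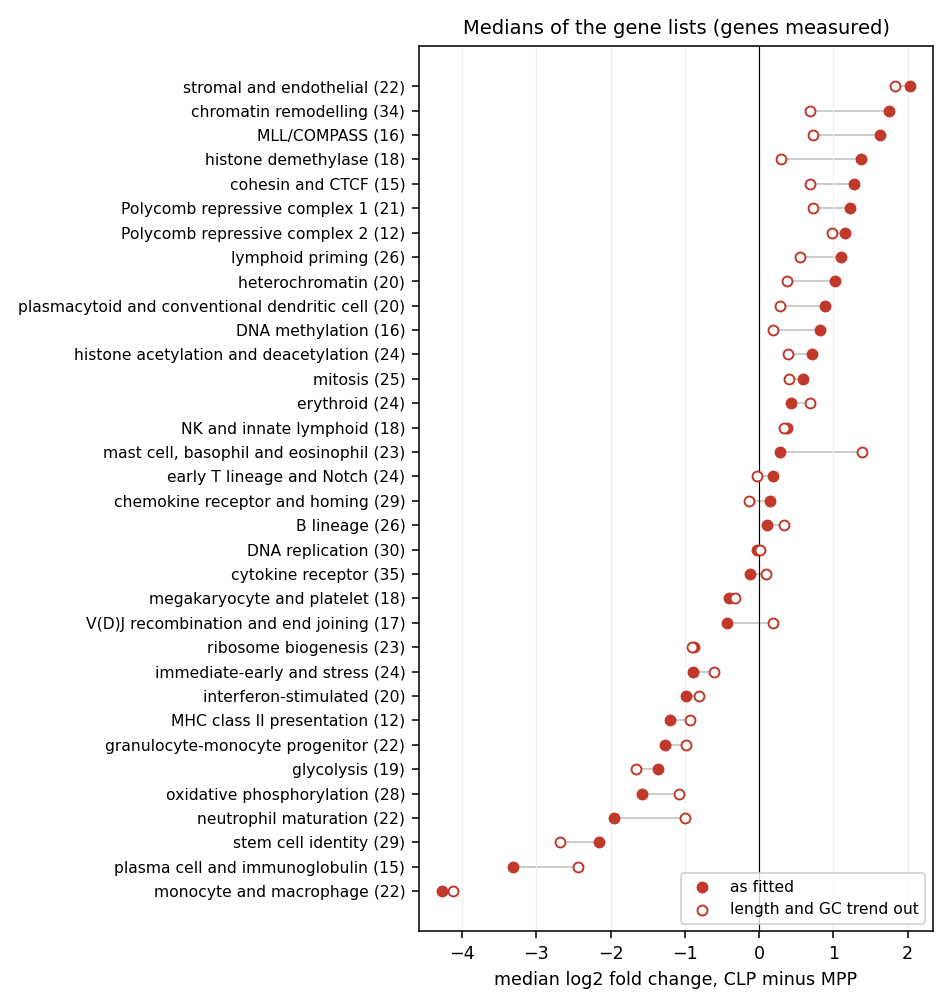
Median log2 fold change (CLP minus MPP) of each gene list, with the number of genes measured in brackets; filled points are values as fitted and open points have the length and GC trend taken out. Chromatin lists lie on the right and move toward 0 with the trend out, and macrophage and plasma cell lists lie on the left.

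Stromal and endothelial genes were higher in CLP, 16 of 22 against 5 lower (median 2.03, length-adjusted 1.82). Their summed level was 3294 to 3489 CPM in CLP and 469 to 485 in MPP. Col1a1, a collagen chain of bone-forming cells, was at 867, 837 and 869 CPM in the CLP libraries and 65.1, 65.0 and 70.9 in the MPP libraries, and Col1a2 at 896 ± 35.0 against 34.4 ± 0.882 CPM. Log2 fold changes were 3.67 ± 0.035 and 4.70 ± 0.037. Cxcl12, the marrow niche chemokine that binds Cxcr4, rose 13-fold (197 ± 2.63 against 15.1 ± 0.700 CPM) and Col2a1, a cartilage collagen, 33.1-fold (20.6 ± 1.33 against 0.604 ± 0.190 CPM). Cdh5, the endothelial cadherin, was low in both (1.82 ± 0.343 against 0.881 ± 0.227 CPM; named after its values were seen). The part of stromal cells in the other results was not tested.

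The 12 largest rises were not lymphoid genes. Pdzd4 rose 248-fold from 5 counts in MPP (29.8 ± 1.5 against 0.117 ± 0.0466 CPM), Sav1, an adaptor of the Hippo pathway, 165-fold (42.6 ± 2.25 against 0.229 ± 0.203 CPM) and Sec14l2 89.9-fold. Zbtb18, a zinc finger repressor, was at 121, 113 and 122 CPM in the CLP libraries and 1.79, 1.15 and 1.44 in the MPP libraries, and Upf1, the helicase of nonsense-mediated decay, at 168, 172 and 179.7 CPM in the CLP libraries and 2.22, 2.31 and 2.25 in the MPP libraries. Both groups of libraries lay far apart (6.33 ± 0.083 and 6.26 ± 0.071). Kif1c (6.42), Lsm14b (6.39), Grik5 (6.31), Ano8 (6.29) and Prr33 (6.82) completed the list with Mid1-ps1 (6.85), annotated as a pseudogene whose reads may belong to a related gene, and Mir5125 (6.70), an annotated miRNA gene of 79 bases whose counts are uncertain in a polyadenylated library. Hist1h2ao completed the list of falls, from 24.6 ± 2.19 CPM to 2 counts in CLP, and its reads can be shared with near-identical histone copies.

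CLP also differed from the other populations of the series. By a rule added after the data were seen, 440 genes with at least 10 CPM in CLP were 4-fold or more above each of the other 10 populations, against 60 in MPP and 0 to 160 in the others. Their median exonic length was 5782 bases, against 4647 for all genes at 10 CPM or more, and all 440 were among those higher than in MPP, which the rule fixes. Xist, the RNA of the inactive X chromosome, was at 2535, 2388 and 2533 CPM in the CLP libraries and 216, 213 and 222 in the MPP libraries, and Tmpo, a nuclear envelope protein, at 659, 629.7 and 670.3 CPM in the CLP libraries and 47.1, 44.5 and 47.0 in the MPP libraries. Also among the 440, and named after their values were seen, were the RNA-binding protein genes Srrm2 (1012 ± 27.2 against 183 ± 2.42 CPM), Hnrnpa3 (804 ± 29.1 against 112 ± 3.26 CPM), Sfpq (653 ± 18.4 against 70.4 ± 4.18 CPM) and Ddx17 (511 ± 11.4 against 35.2 ± 0.335 CPM). Mpeg1, a perforin-like protein of phagocytes and dendritic cells, was at 621 ± 16.4 CPM in CLP and at most 139 in another population, and Spn, which encodes CD43, at 495 ± 14.6 and at most 59.2. The 440 genes were not tested for a shared function. Among Y-linked genes only Uty had a count, 1 in CLP.

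Common myeloid progenitors (CMP) were set beside CLP. Since their difference from MPP uses the same MPP libraries, only values side by side and the direct contrast of CLP with CMP are given. Il7r was 2.59 above MPP in CMP and 2.68 in CLP, and the contrast of CLP with CMP was small (0.094 ± 0.041, edgeR adjusted p = 0.0304). Lymphoid priming genes had a median of 0.89 in CMP against MPP. In CLP 18 of 26 were higher than in CMP and 7 lower (median 0.31), where 43.3% of all genes were higher and 39% lower. Dntt was lower in CLP than in CMP (-3.47 ± 0.046), as were Rag2 (-2.44), Mef2c (-1.79), Flt3 (-1.56), Blnk (-1.52), Cnn3 (-1.47) and Ccr9 (-1.39). Spib (3.50 ± 0.14) and Ikzf3 (7.11 ± 0.17) were higher, and so were Thy1 (5.33 ± 0.13) and Cd7 (2.77 ± 0.093) of the early T list (edgeR adjusted p from 9.98e-68 to 1.19e-23). In the early T list 9 of 24 genes were higher and 10 lower than in CMP. C1qb was lower than in MPP in both, by 8.33 in CMP and 12.85 in CLP. Of 15 plasma cell and immunoglobulin genes 6 were higher in CLP than in CMP and 5 lower (median -0.15). Granulocyte-monocyte progenitor genes were higher in CLP than in CMP in 18 of 22 and lower in 4 (median 1.09). For monocyte and macrophage genes 15 of 22 were higher and 5 lower (median 0.98).

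Rad21 changed little from MPP to CMP (0.28) and Ctcf rose by 0.78. Both were higher in CLP than in CMP (3.50 ± 0.032 and 2.36 ± 0.032, edgeR adjusted p = 2.95e-112 and 4.21e-94). Chromatin remodelling genes had a median of 0.43 in CMP against MPP, and 30 of 34 were higher in CLP than in CMP. Over all genes 43.3% were higher in CLP than in CMP and 39% lower. The contrast of CLP with CMP was not length-adjusted, and the remodelling genes are long. Basophil, mast cell and eosinophil genes had the highest list median of this contrast, with 20 of 23 higher and 3 lower and a median of 7.43. Stem cell identity genes were lower in CLP in 20 of 29 (median -1.41), and all 28 oxidative phosphorylation genes were lower (median -1.04). Of 19 glycolysis genes 9 were higher in CLP than in CMP and 10 lower (median -0.13).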

How the data were processed

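Raw read counts per gene were used as deposited by the authors in 1 table for 33 libraries. Per the submitters' processing notes, cutadapt, HISAT2, HTSeq and DESeq2 were used with the build mm39. Versions, annotation release and strandedness are not given in the sources used here. Columns were matched to libraries by name and none was left out. Exonic length, GC content and symbols came from GENCODE M21 (GRCm38) by gene ID, and 96.6% of tested genes had a length, so no coordinates of the files' build were used. Promoters came from RefSeq tables.

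The counts were filtered by group (filterByExpr) and scaled with TMM. All 33 libraries entered 1 robust quasi-likelihood fit in edgeR 4.0.16 (R 4.3.3) with a mean per population and 22 residual degrees of freedom, so that the 11 populations share an estimate of the spread. CLP minus MPP, and CLP minus CMP, were contrasts of it, with p-values adjusted over all 20464 genes. The length-adjusted fit took out natural splines (5 degrees of freedom) of exonic length and GC content per library as offsets. The fit and the adjustment were also run on simulated counts with planted changes and a planted length trend that had no GC part. That run does not show how the adjustment behaves on these libraries. Where a group had 1 to 3 counts, no fold is given.

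Members and gene lists were chosen with earlier results of these data known. The lists hold 784 entries, of which 776 were tested. They come from general knowledge of these cells and get no test of their own. Genes named were the 12 largest rises and falls that passed the threshold of 0.05, reached 10 CPM in the higher group and did not overlap between libraries. Predicted and clone-named genes, ribosomal protein genes, mitochondrial genes, antigen receptor segments and IDs without symbols were left out. To these came the gate genes, up to 5 members per list by size of change, and all measured members of the lymphoid priming, early T, V(D)J, cytokine receptor and cohesin lists. A few genes that this rule picks are not reported here. Alternatives were DESeq2 1.42.0, limma-voom (limma 3.58.1), relative log expression factors, no scaling beyond library size, no filter, the 6 libraries only, the replicate number as a block, length alone, a test against 2-fold, and leaving out each library. Estimating the dispersion before the fit was added after the data were seen.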

Additional observations from a re-analysis of the deposited data

How the results depend on the processing

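The counts of called genes moved by less than 1.5 times under relative log expression factors, no filter, DESeq2, limma-voom, the 6 libraries only, the replicate block, both trend corrections and the added dispersion setting. A test against a 2-fold change called 4935 genes higher and 3710 lower. Scaling by library size alone left 4970 lower and 2735 lower by 2-fold or more. Leaving out 1 library gave 7841 to 8151 genes higher, 7367 to 7510 lower, 5641 to 5864 higher by 2-fold or more and 4439 to 4546 lower. The cause of these shifts was not tested.

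Spearman's rho of fold change with exonic length, 0.290 over all tested genes, was 0.282 to 0.296 without 1 library, 0.326 with the 6 libraries only, 0.308 by limma-voom, 0.315 with the longest transcript, 0.344 in protein-coding genes and 0.524 in genes of 10 CPM or more. It was -0.155 with the length and GC trend out, -0.150 with the length trend out and -0.156 with the block and trend together, each by its own construction. Low counts limit short genes most: the adjustment is not reliable for genes far under 10 CPM.

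Of 297 genes that the naming rule picks 287 passed, and 26 turned sign under at least 1 setting. With the length and GC trend out the log2 fold changes of those reported here were Dntt 0.18, Tcf3 -0.67, Tcf4 -0.20, Runx1 -0.080, Dtx1 -0.063, Lck 0.21, Itga4 -0.32, Ifnar2 0.17, Tnfrsf1a 0.10, Tgfbr1 -0.13, Fcgr2b -0.27, Cd48 0.42, Ptprc -1.41, Nhej1 0.49, Trp53bp1 -0.57, Mau2 -0.36, Esco1 -0.0013 and Cdca5 0.23. With the length trend out they were Dntt 0.017, Tcf4 -0.25, Runx1 -0.12, Lck 0.23, Lat 0.090, Itga4 -0.38, Ifnar2 0.040, Tnfrsf1a 0.24, Tgfbr1 -0.23, Fcgr2b -0.36, Cd48 0.20, Ptprc -1.44, Nhej1 0.31, Trp53bp1 -0.60, Mau2 -0.37, Esco1 -0.11 and Cdca5 0.086. With library size alone they were Flt3 0.46, Dntt 0.0089, Mef2c 0.45, Lck 0.38, Lat 0.18, Csf1r 0.24, Il1r1 0.36, Il4ra 0.22, Ifnar2 0.36, Tnfrsf1a 0.29, Xrcc6 0.16 and Cdca5 0.056. With the 6 libraries only they were Fcgr2b -0.00051 and Ptprc -0.042. The call was lost without a change of sign in 17 other genes, and in 5 genes by leaving out 1 library.

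The replicate numbers are not a pairing given by the labels, and same-numbered libraries did not deviate together (correlations 0.025, 0.016 and -0.006). With the replicate number as a block 8101 genes were higher and 7663 lower, and no named gene lost its call. With the block and the length and GC trend out, the turned values were Dntt 0.18, Tcf3 -0.67, Tcf4 -0.20, Runx1 -0.081, Dtx1 -0.062, Lck 0.21, Itga4 -0.32, Ifnar2 0.17, Tnfrsf1a 0.10, Tgfbr1 -0.13, Fcgr2b -0.27, Cd48 0.42, Ptprc -1.41, Nhej1 0.48, Trp53bp1 -0.57, Mau2 -0.36, Esco1 -0.00033 and Cdca5 0.23. List medians that changed sign between the fit as reported and the length and GC trend out were those of the early T (0.18 to -0.024), homing (0.14 to -0.13), cytokine receptor (-0.12 to 0.097), V(D)J (-0.43 to 0.18) and replication (-0.023 to 0.0055) lists.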
